A study of Mus musculus with 12 samples.

Results

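Antibody-secreting cells (ASCs) of the thymus were compared with those of the spleen. ASCs, which comprise plasmablasts and mature plasma cells, release immunoglobulin, and a small number of them reside in the thymus, the organ in which T cells mature. The cells were sorted from C57BL/6 mice, 3 months old, that carry Prdm1-eYFP, a yellow fluorescent reporter of the ASC transcription factor Blimp-1. The sort took B220 positive or negative cells with high CD138 that lacked IgD and CD90.2 and carried the reporter. Each gene expression library came from the pooled cells of 3 mice of 1 sex and 1 tissue, which gave a female and a male library for thymus, for spleen and for bone marrow. The mice received no treatment that the labels name. No label states if thymus and spleen of a pool were taken from shared animals. Cells whose reporter or CD138 was low were not collected, so a difference between tissues holds for the sorted gate. In summed counts, fewer cells that express a gene and less RNA per cell cannot be told apart.

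A barcode entered the comparison if it held at least 500 UMIs (unique molecular identifiers, each standing for 1 counted RNA molecule) outside the immunoglobulin genes. Mitochondrial UMIs had to stay under 10%, and the leading light-chain V gene had to hold at least 50% of all light-chain V UMIs. An ASC normally uses a single light-chain V gene, so a low share points to RNA from several cells in a droplet. These limits kept 6111 of the 29191 barcodes called as cells in the 4 libraries, of 39949 in the 6 libraries of the series. The female thymus gave 128 of 752 barcodes, the male thymus 353 of 1586, the female spleen 3660 of 15576 and the male spleen 1970 of 11277. Just inside the 50% limit, with shares of 50 to 55%, lay 14, 39, 491 and 340 cells in that order, and 8, 21, 499 and 406 barcodes lay just outside it at 45 to 50%.

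The thymus libraries were much shallower than the spleen libraries. The kept cells held 278816 UMIs outside immunoglobulin genes in the female thymus and 1232467 in the male thymus, against 21364127 and 8020869 in the spleens. The median cell held 1800.5, 2167, 4182.5 and 3250 such UMIs. The 10 deepest cells carried 23.3% of the UMIs of the female thymus and 14.7% of the male thymus, against 1.53% and 3.09% in the spleens. In these libraries 31 and 64 kept thymic barcodes (24.2% and 18.1%) also occurred in the list of another library. So did 136 and 98 splenic ones (3.72% and 4.97%). The leading light-chain V gene matched for 30 of 30 male thymic barcodes shared with female bone marrow. Their median depth was 10421.5 UMIs outside immunoglobulin genes in the thymus and 343.5 in bone marrow. It matched for 9 of 20 male thymic barcodes shared with the female spleen, and for 7 of 55 female splenic ones shared with the male spleen. The source of the sharing was not tested. Leaving out shared barcodes with more UMIs in another library kept 120 and 341 thymic cells. Levels of single genes are given as CPM, UMIs scaled to 1000000 outside immunoglobulin genes after TMM adjustment of each library total (factors of 0.812 for the female spleen to 1.17 for the female thymus). Summed levels of lists and levels in free RNA use unadjusted totals. Xist, the RNA of the inactive X chromosome, stood at 1375 CPM in the female thymus and 829 CPM in the female spleen. In the male libraries it was at 1.46 CPM (thymus) and 1.17 CPM (spleen), so these 4 libraries match their labelled sex. The receptor (VDJ) tables carried the opposite sex labels: 126 of 128 female thymic and 333 of 353 male thymic barcodes were listed in the VDJ table labelled with the other sex. For the spleen these were 1123 of 3660 female and 1511 of 1970 male barcodes. No value below uses the VDJ tables.

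Plasma cells build their identity on the transcription factors Blimp-1, Irf4 and Xbp1 and on a large secretory apparatus. Type I interferons are antiviral cytokines that act through the receptor Ifnar1 and Ifnar2, the kinases Jak1 and Tyk2 and a transcription factor complex that holds Irf9. The complex binds the interferon-stimulated response element in the promoters of antiviral genes. The thymus is known to hold steady interferon signalling in the absence of infection.

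The sequences below show this element in the promoters of called genes, as context for the values that follow. Of the 56 genes called higher in the thymus (described below), 37 had a promoter in the RefSeq table for GRCm38.p6. The motif searched was GAAA, any 2 bases and GAAA again, on either strand (TTTC, any 2 bases and TTTC when read on the gene's strand), overlapping matches included, within 250 bases before the annotated start. It occurred in 10 of the 37 genes (27.0%), against 291 of 8745 tested genes with a promoter (3.33%) and 978 of all 32851 promoters of that length (2.98%). None of the 8 matched genes called lower held it. Promoters of 4 Ifi200 genes, 2 oligoadenylate synthetases and Trim30d are printed, to show where the match lies. The last 150 bases before the start are given 5′ to 3′ on the gene's strand, with the match in capitals.
Ifi206 (chr1:173491319-173491468, minus strand): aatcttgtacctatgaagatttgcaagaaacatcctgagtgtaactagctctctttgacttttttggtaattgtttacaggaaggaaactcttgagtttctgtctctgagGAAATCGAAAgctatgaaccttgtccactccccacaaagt
Ifi208 (chr1:173673515-173673664, plus strand): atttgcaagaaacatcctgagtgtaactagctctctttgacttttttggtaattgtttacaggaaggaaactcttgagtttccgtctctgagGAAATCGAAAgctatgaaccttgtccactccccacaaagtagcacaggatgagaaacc
Ifi213 (chr1:173599273-173599422, minus strand): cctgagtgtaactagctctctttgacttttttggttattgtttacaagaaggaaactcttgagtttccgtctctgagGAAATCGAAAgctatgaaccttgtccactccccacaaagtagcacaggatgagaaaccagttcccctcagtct
Ifi214 (chr1:173535958-173536107, minus strand): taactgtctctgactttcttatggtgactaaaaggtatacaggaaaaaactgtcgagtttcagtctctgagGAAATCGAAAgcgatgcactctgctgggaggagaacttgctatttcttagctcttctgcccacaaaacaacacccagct
Oas3 (chr5:120777660-120777809, minus strand): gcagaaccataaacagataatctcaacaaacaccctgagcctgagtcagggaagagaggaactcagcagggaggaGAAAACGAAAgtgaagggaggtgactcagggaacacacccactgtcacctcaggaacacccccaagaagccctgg
Oas1a (chr5:120907526-120907675, minus strand): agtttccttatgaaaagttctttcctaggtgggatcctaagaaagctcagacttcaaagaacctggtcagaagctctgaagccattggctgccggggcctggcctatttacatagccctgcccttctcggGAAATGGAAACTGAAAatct
Trim30d (chr7:104507850-104507999, minus strand): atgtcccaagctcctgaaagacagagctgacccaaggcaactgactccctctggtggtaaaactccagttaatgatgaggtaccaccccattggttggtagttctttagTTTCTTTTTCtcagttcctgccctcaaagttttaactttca
The 4 Ifi200 promoters carry the same match, GAAATCGAAA, and the Oas1a promoter holds a pair of overlapping matches. The stretches of Ifi206, Ifi208 and Ifi213 are near copies of each other, as are those of Trim30d and a Trim30a promoter. The called genes with a match are therefore not all independent of each other. A match is a description of letters and no evidence of binding. The motif was not particular to called genes: 9 of 9 tested immunity GTPases with a promoter in the table held it, and none of these was called.

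In the thymic cells, 56 genes (0.497% of 11264 tested) were called higher than in the spleen and 14 (0.124%) lower, 0.621% in either direction. A gene was called when edgeR's quasi-likelihood test gave an adjusted p under 0.05 and thymus minus spleen had the same sign in the female and the male pool. That agreement of sign alone held for 23.1% of tested genes on the higher and 28.8% on the lower side. The median log2 fold change of the called genes was 2.08 for the higher ones and -1.98 for the lower ones, where 1 log2 unit is a doubling and the median of all tested genes was -0.03. Genes of the interferon response made up 19 of the 56 higher ones: antiviral effectors, Ifi200 proteins, immunity GTPases, signalling genes and a nucleic acid sensor. These lists held 9, 5, 2, 2 and 1 of the calls among 27, 9, 16, 15 and 10 tested members, in that order. Of all tested genes, 0.497% were called higher. Among the 56 genes, 32 were in none of the gene lists, and 15 had predicted or clone names. The lists were chosen with earlier results of these data known. The lower ones included an immune-modulating enzyme, Il4i1, Vpreb3, a chaperone of the immature B cell receptor, histone genes and the immediate early genes Egr1 and Fos. All 56 higher genes had both thymus libraries above both spleen libraries, an arrangement that 17.7% of all tested genes showed. Both thymus libraries lay below both spleen libraries for 13 of the 14 lower genes, against 21.0% of all tested genes. The calls were made on the same values, so such an arrangement is largely fixed by the selection and is no separate support.

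**Figure D1:**
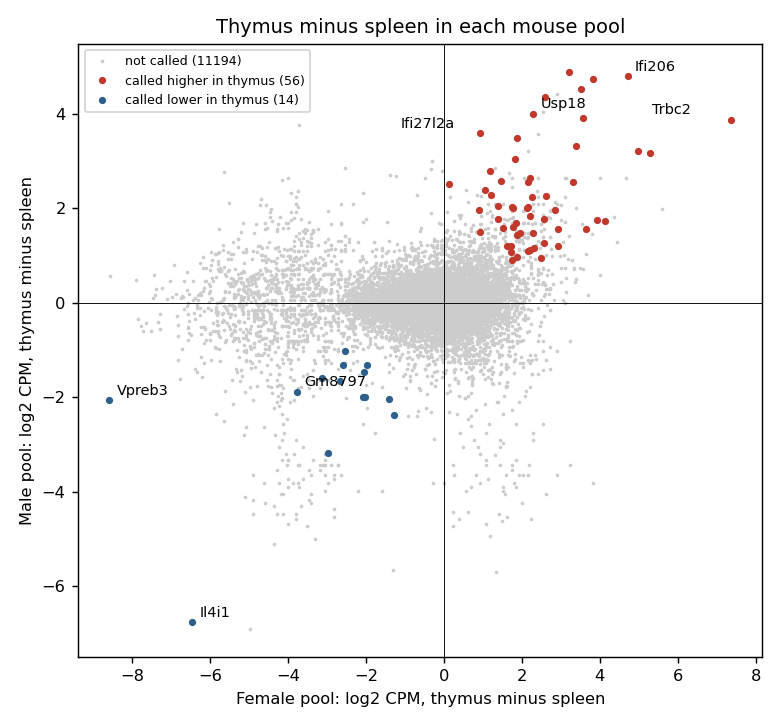
Each point is 1 of 11264 tested genes, with the log2 difference of thymus minus spleen in the female pool (horizontal axis) and in the male pool (vertical axis), computed from log2 CPM with a small prior count. The 56 genes called higher (red) fill the upper right quadrant and the 14 called lower (blue) the lower left, and Il4i1, with no thymic UMI, lies at the far lower left.

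Without TMM scaling, which moved the median of all genes to 0.20 log2, 63 genes were called higher and 3 lower. The count of calls depended on single libraries. Without the male spleen 230 genes were called higher and 717 lower, without the male thymus 64 and 109, and without either bone marrow library 25 or 26 higher and 6 lower. The bone marrow libraries enter the comparison through the low-count filter, the scaling, the spread, the sex term and the p adjustment.

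In both pools, the median cell's shares of UMIs that can move with RNA quality differed between thymus and spleen, most in the female pool. They thus moved with the comparison, but RNA quality itself was not measured. Ribosomal protein genes held a median 2.16% and 2.0% of a cell's UMIs in the female and male thymus, against 10.1% and 3.19% in the spleens. Nuclear long noncoding RNAs held 9.93% and 7.96% against 2.84% and 6.87%. In the summed counts, ribosomal protein genes stood at 53659 and 92927 CPM in the thymus and 151461 and 87601 CPM in the spleens. Nuclear RNAs stood at 85343 and 58544 CPM against 29675 and 56519 CPM, so the sums of the male pool differed little. In the female pool the median ribosomal protein gene differed by -2.07 log2 between thymus and spleen, and in the male pool by -0.04. Genes of oxidative phosphorylation followed the same pattern, with medians of -1.92 and -0.10. None of the 79 ribosomal or 88 oxidative phosphorylation genes tested was called, where 0.621% of all tested genes were. Among cells with at least 10% ribosomal protein UMIs, a setting chosen after seeing the data that leaves 15 and 69 thymic cells, 80 genes were called higher and 35 lower. Ifi206 stood at 5.07 log2 there, Rtp4 at 5.17 and Tlr7 at 2.41, all called, whereas Samd9l (3.04) and Ifi214 (1.63) were not.

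**Figure D2:**
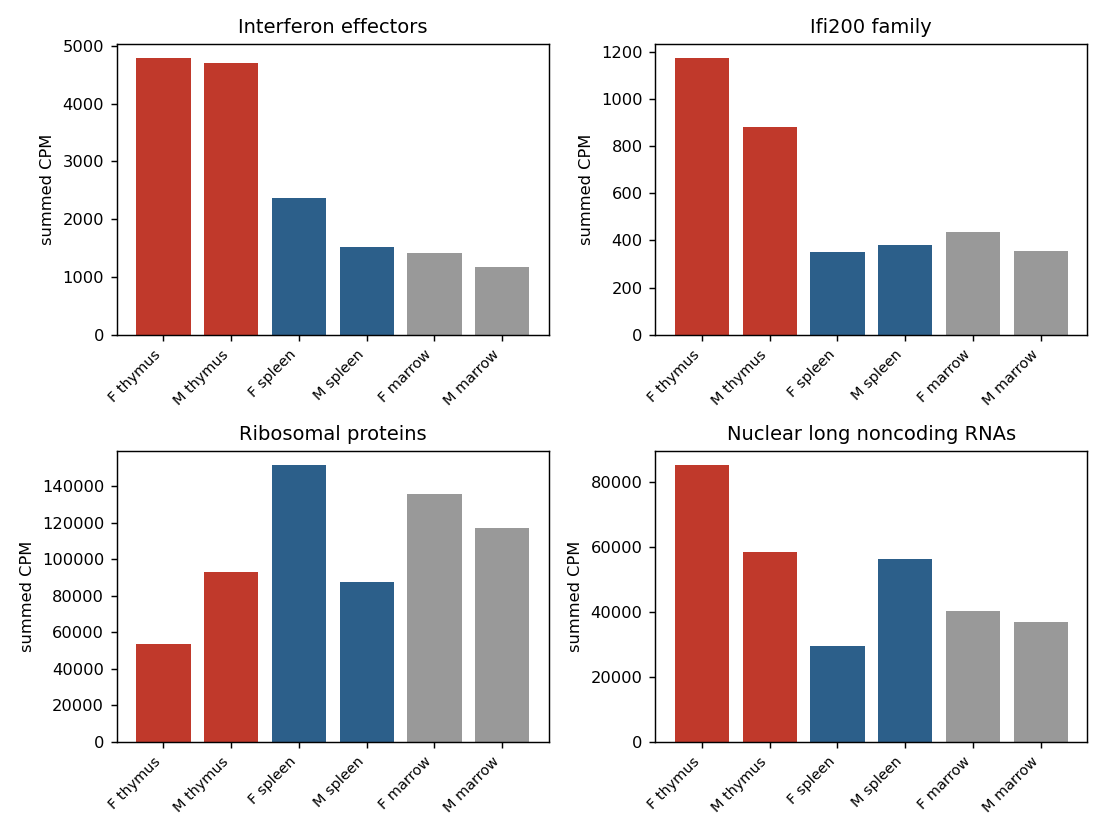
Bars give the summed CPM (UMIs outside immunoglobulin genes, without TMM scaling) of 4 gene lists in each library, with F for the female and M for the male pool. Interferon effectors and Ifi200 genes stand higher in both thymus libraries than in all others, whereas ribosomal protein and nuclear noncoding RNA levels set the female thymus and the female spleen farthest apart.

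ASC identity genes did not pass the test in either direction. None of the 18 members of that list was called, where 0.621% of all tested genes were, and their median was -0.24 log2. Both thymus libraries lay below both spleen libraries for 7 of them and above for 1. Among all tested genes these shares were 21.0% and 17.7%. Prdm1, which encodes Blimp-1 and drives the sorted reporter, was at 888 and 925 CPM in the female and male thymus and at 1041 and 785.9 CPM in the spleens, which overlap. Sdc1, which encodes the sorting marker CD138, was at 287.8 and 408 CPM against 353 and 375 CPM. Irf4, a transcription factor of activated B cells and plasma cells, was at 750.1 and 704 CPM in the thymus and at 334 and 460.4 CPM in the spleen. Its libraries do not overlap, but the log2 difference was 0.88 (SE 0.39) with an adjusted p of 0.5 in edgeR's quasi-likelihood test. Mzb1, a chaperone of immunoglobulin assembly, was at 2278 and 3282 CPM in the thymus and at 11090 and 4775 CPM in the spleen, a difference of -1.41 log2 (SE 0.57, edgeR adjusted p 0.49). In 3 of 22 alternatives Mzb1 gained a call. A UMI of Jchain, which joins IgM and IgA into polymers, was found in every kept cell of the 4 libraries. RNA outside cells also carried Jchain, at 58320 to 88210 CPM in the 4 libraries, so that share does not tell cells from free RNA. Prdm1 stood at 635.5 and 806.6 CPM in free RNA of the thymus and at 658.1 and 616.6 CPM in that of the spleen, below the level in cells in each of the 4 libraries. Xbp1, the factor of the secretory programme, was likewise higher in cells than in free RNA in each library, at 3010 against 2163 and 3203 against 2832 CPM in the thymus and at 4438 against 2803 and 3473 against 2534 CPM in the spleen.

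The antiviral effectors held the most calls. Of 27 tested members 9 were called higher and none lower, and their median was 1.15 log2. The summed level of all 39 members in the files was 4795 and 4708 CPM in the thymus and 2368 and 1518 CPM in the spleen. Rtp4, a transporter chaperone that interferon induces, was at 21.4 and 16.1 CPM in the thymus and at 1.39 and 0.468 CPM in the spleen. Its log2 fold change was 4.41 (SE 0.59, adjusted p 0.00014 in edgeR's quasi-likelihood test), and it was called in all 19 alternatives that tested it, between 3.98 without the male thymus and 5.43 in cells without cycling UMIs. Without the female spleen it was 5.01. Lgals3bp, a secreted galectin-binding glycoprotein, was at 318 and 244 CPM against 70.8 and 41.9 CPM. Its log2 fold change was 2.35 (SE 0.32, edgeR adjusted p 0.00014), and it was called in all 22 alternatives. Ifi27l2a, an interferon-induced mitochondrial protein, was at 1555 and 1926 CPM against 814 and 160.8 CPM. The rise of 2.33 log2 (SE 0.53) passed with an edgeR adjusted p of 0.034, yet the difference was 0.93 in the female pool and 3.58 in the male pool. Without the male thymus it was 1.12, without the male spleen 1.44, and without the female or male bone marrow 2.25 and 2.26, each time not called. Without the female thymus it was 3.34 and without the female spleen 3.22, and 12 of 22 alternatives lost the call.

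The oligoadenylate synthetases make a messenger molecule that activates RNase L against viral RNA. Oas1a (15.3 and 12.4 CPM against 1.15 and 0.702) and Oas3 (9.18 and 11.0 CPM against 0.866 and 0.234) rose by 4.03 (SE 0.68) and 4.25 (SE 0.74) log2, with edgeR adjusted p-values of 0.0017 and 0.0025. They rest on 5 and 17 thymic UMIs for Oas1a and 3 and 15 for Oas3. Oasl2, a relative of these genes, was at 15.3 and 14.6 CPM against 2.42 and 0.585 CPM. Its log2 fold change was 3.65 (SE 0.58, edgeR adjusted p 0.00096), and the call was lost without the male thymus (2.68). Without the female thymus or the female spleen it was 4.43 or 4.36. These genes form a family whose members share sequence, so reads may be split among them.
Trim30a (244.9 and 130.3 CPM against 71.7 and 43.0) and Trim30d (159 and 73.2 CPM against 32.7 and 26.3), members of the tripartite motif family, rose by 1.68 (SE 0.29) and 1.86 (SE 0.29) log2, with edgeR adjusted p-values of 0.0023 and 0.00086. The thymus libraries lay above the spleen libraries for both genes. As near copies of each other, they may exchange reads. Xaf1, a promoter of apoptosis that interferon induces, was at 55.1 and 62.2 CPM against 26.4 and 11.8 CPM and rose by 1.83 log2 (SE 0.32, edgeR adjusted p 0.0023).

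Other well-known interferon genes were not called. Isg15, a ubiquitin-like modifier kept with the signalling genes, was lower in the female thymus than in the female spleen (138 against 221.5 CPM) and higher in the male thymus than in the male spleen (294 against 60.7 CPM). After thinning each cell to 500 UMIs the share of cells with an Isg15 UMI was 7.81% and 5.95% in the thymus and 4.34% and 2.23% in the spleen, so in the female pool the share and the CPM stand in opposite order and no order is read from them. Bst2, which tethers budding viruses, was at 205 and 366 CPM in the thymus and 420.5 and 168 CPM in the spleen, in overlapping order. Rsad2, Ifit2 and Ifit3, antiviral genes that respond strongly to interferon, had no UMI in either thymus library, where a count of 0 allows up to 3 UMIs. Rsad2 had 16 and 4 UMIs in the far deeper spleen libraries, Ifit2 had 7 and 1 and Ifit3 had 9 and 0. A lower level in the thymus was not detectable at this depth, whereas Rtp4, with 24 and 4 splenic UMIs, had 7 and 22 thymic ones. Mx1 and Mx2 were not analysed here.

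In the signalling list 2 of 15 tested members were called higher, with a median of 0.67 log2. Usp18 (chr6:121245906-121270917), the protease that removes Isg15 from proteins and damps the interferon receptor, was at 39.8 and 43.2 CPM in the thymus and at 8.02 and 2.57 CPM in the spleen. Its log2 fold change was 3.21 (SE 0.39, adjusted p 7.1e-05 in edgeR's quasi-likelihood test), and it was called in all 21 alternatives that tested it, between 2.41 without the male thymus and 4.0 without the female spleen. Leaving out the female thymus gave 3.80 and the male spleen 2.45. Irf7, the transcription factor that amplifies interferon production, was at 88.8 and 132 CPM against 39.3 and 19.1 CPM. It rose by 2.09 log2 (SE 0.32, edgeR adjusted p 0.00086), and without the male thymus it stood at 1.29 and lost the call. In free RNA Irf7 was higher in the thymus by 1.26 and 2.92 log2 in the female and male pool. The receptor genes Ifnar1 and Ifnar2 stood at 0.26 and -0.48 log2 and the kinase genes Jak1 and Tyk2 at -0.09 and 0.02, none of them called.

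Among the sensors of foreign nucleic acid 1 of 10 tested members was called higher, with a median of 0.67 log2. Tlr7 (chrX:167304929-167330558), the endosomal receptor for single-stranded RNA, was at 94.9 and 75.4 CPM in the thymus and at 19.6 and 15.9 CPM in the spleen. Both pools differed by a similar amount, 2.27 log2 in the female and 2.23 in the male pool. The fitted log2 fold change was 2.28 (SE 0.29, edgeR adjusted p 7.3e-05), and only thinning every library to the 278816 UMIs of the female thymus ended the call. Ifih1 and Dhx58, sensors of double-stranded RNA in the cytosol, stood at 1.26 and 1.46 log2 and were not called. Tmem173, which encodes the DNA-sensing adaptor STING, stood at -0.08 log2, also not called.

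The Ifi200 family, whose members bind DNA or assemble around it, had 5 of 9 tested members called higher and a median of 1.86 log2. All 9 had both thymus libraries above both spleen libraries, an arrangement that 17.7% of all tested genes showed. For the 5 called members it is largely fixed by the selection. The family's summed level was 1176 and 882 CPM in the thymus and 349 and 380.3 CPM in the spleen. Ifi206 (chr1:173468485-173491041) was at 101 and 74.7 CPM against 3.69 and 2.57 CPM. The difference was 4.72 log2 in the female pool and 4.78 in the male pool, and the fit gave 4.82 (SE 0.32, adjusted p 2.9e-10 in edgeR's quasi-likelihood test). It was called in all 22 alternatives, between 4.29 and 5.14. A UMI of Ifi206 was found in 8 of 128 female and 10 of 353 male thymic cells after thinning each cell to 500 UMIs, against 5 of 3660 and 4 of 1970 splenic cells. RNA outside cells held Ifi206 at 38.3 and 38.1 CPM in the thymus and at 5.39 and 4.64 CPM in the spleen.
The neighbouring genes moved less. Ifi208 (24.5 and 11.7 CPM against 2.19 and 1.05), Ifi214 (33.7 and 32.2 CPM against 7.62 and 7.95) and Ifi213 (126 and 92.2 CPM against 36.6 and 23) rose by 3.50, 2.08 and 1.86 log2. Ifi204 rose by 2.54 log2 on 4 and 12 thymic UMIs, with an edgeR adjusted p of 0.048. Ifi209, Mndal, Ifi203 and Ifi211 stood between 0.37 and 1.07 log2 and were not called. These genes form a multigene family, so reads may be divided among members, and single levels in the family are uncertain.

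The immunity GTPases, which attack the vacuoles of pathogens inside cells, had 2 of 16 tested members called higher and a median of only 0.20 log2. Gbp6, a guanylate-binding protein, was at 49.0 and 30.7 CPM in the thymus and 13.3 and 11.3 CPM in the spleen, and rose by 1.62 log2 (SE 0.32, edgeR adjusted p 0.011). Gvin1, a very large inducible GTPase, was at 45.9 and 41.0 CPM against 13.8 and 19.3 CPM and rose by 1.36 log2 (SE 0.32, edgeR adjusted p 0.042). Leaving out any library but the male spleen ended the Gvin1 call, at log2 values of 1.09 to 1.56, and 14 of 21 alternatives lost it. The Gbp6 call was lost without either bone marrow library, at 1.63 log2 in each case. Gbp2, which responds strongly to interferon gamma, stood at -1.89 log2 (0 and 5 thymic UMIs) and was not called.

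Ly6c2 was the most abundant gene called higher. It encodes a surface protein of the Ly6 family that is found on plasma cells and many other white blood cells. Its level was 6537 and 6110 CPM in the thymus and 1774 and 544 CPM in the spleen, so all thymic values lay above the splenic ones. The log2 fold change was 2.66 (SE 0.54, edgeR adjusted p 0.014). After thinning each cell to 500 UMIs, 69.5% of female and 51.8% of male thymic cells held a Ly6c2 UMI, against 33.5% and 15.5% of splenic cells, and the unthinned levels stand in the same order. RNA outside cells held Ly6c2 at 6497 and 5865 CPM in the thymus and at 1454 and 648.4 CPM in the spleen, close to the levels in cells, so these shares do not tell cells from free RNA. The exact permutation test of 2 against 2 libraries cannot go below p = 0.33, the value it gave. The edgeR call was lost without the male thymus (2.11 log2) and without either bone marrow library (2.68 log2 in each case), and in 8 of 22 alternatives in all. With barcodes in 1 library only, which keeps 97 and 289 thymic cells, it was 1.64 and not called. Without the female spleen it was 3.37 and without the male spleen 2.01. Of the other Ly6 genes tested, none was called. Ly6a and Ly6d stood at -0.06 and -0.73 log2, and the near copy Ly6c1, which may share reads with Ly6c2, at 1.58 (edgeR adjusted p 0.33).

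**Figure D3:**
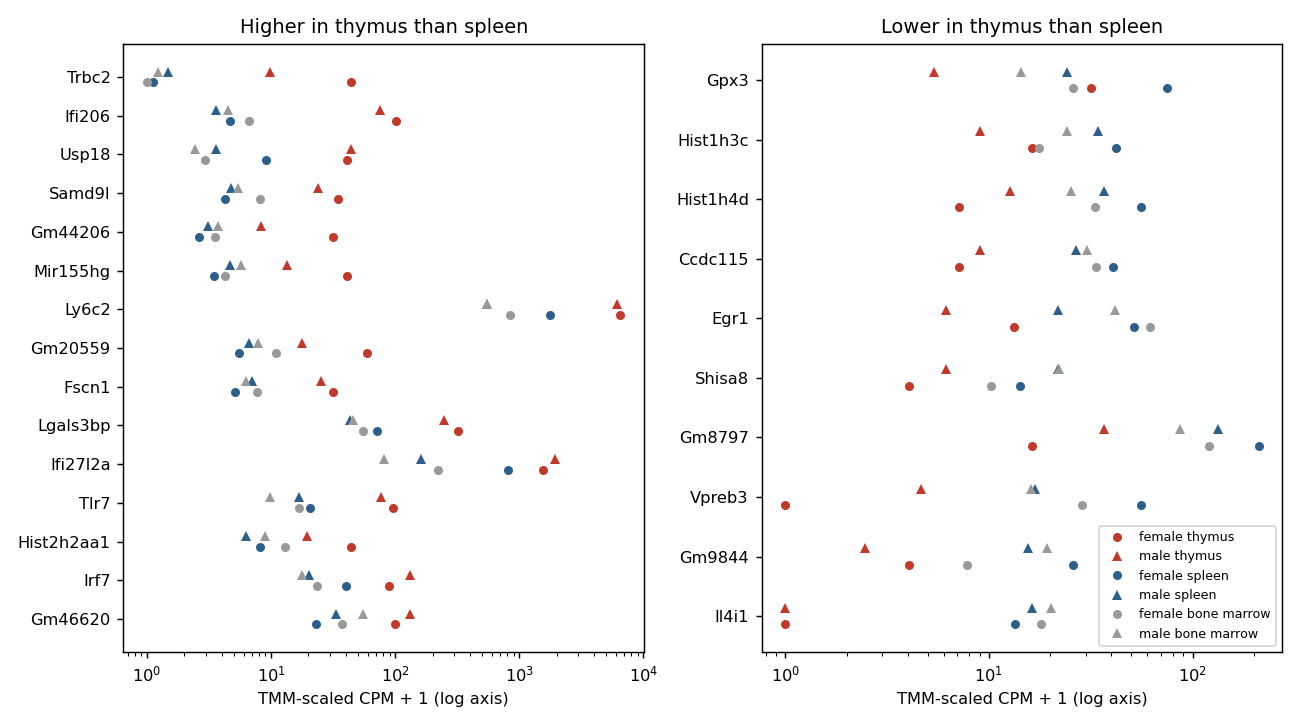
Levels in each library of the 15 called genes with the largest rise among those with at least 10 UMIs in each thymus library (left), and of the 10 with the largest fall among those with at least 10 UMIs in each spleen library (right), as TMM-scaled CPM plus 1 on a log axis, with circles for the female and triangles for the male pool. Red thymic points lie to the right of all blue splenic points on the left panel, and to the left of them on the right panel except for Gpx3.

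Genes outside the interferon lists were also higher. Samd9l, an inhibitor of translation and of viral growth, was at 33.7 and 22.7 CPM in the thymus and 3.23 and 3.74 CPM in the spleen, and rose by 2.98 log2 (SE 0.42, edgeR adjusted p 0.00021). Its neighbour Gm20559 on chromosome 6 was at 58.2 and 16.8 CPM against 4.50 and 5.61 CPM and rose by 2.57 log2 (SE 0.44, edgeR adjusted p 0.0018). That value was 1.80 without the female thymus, 3.48 without the male thymus, 1.95 without the female spleen and 3.22 without the male spleen. Mir155hg, the host transcript of the microRNA miR-155, was at 39.8 and 12.4 CPM against 2.48 and 3.63 CPM. It rose by 2.72 log2 (SE 0.52, edgeR adjusted p 0.0079), and stood at 1.77 without a call when the female thymus was left out and at 3.97 when the male thymus was. Fscn1, which bundles actin filaments, was at 30.6 and 24.2 CPM against 4.10 and 6.08 CPM and rose by 2.37 log2 (SE 0.40, edgeR adjusted p 0.0018).
The next genes are less characterised or belong to a multigene family. Hist2h2aa1, a histone gene with near-identical copies, was at 42.9 and 18.3 CPM against 7.10 and 5.26 CPM and rose by 2.15 log2 (edgeR adjusted p 0.003). The call was lost in 5 of 20 alternatives, with 1.11 for barcodes in 1 library only and 1.17 in cells without other-type markers. Gm46620, a long noncoding RNA, was at 98.0 and 132 CPM against 21.8 and 32.3 CPM and rose by 2.08 log2 (SE 0.29, edgeR adjusted p 0.00019). Gm44206, an antisense transcript on 10 UMIs in each thymus library, rose by 2.91 log2 (edgeR adjusted p 0.02), and the call was lost without the female thymus (1.85) or the female spleen (2.37). It was 4.16 without the male thymus. Scd2, a fatty acid desaturase, was at 165 and 142 CPM against 49.1 and 75.8 CPM and rose by 1.30 log2 (edgeR adjusted p 0.047). That call was lost when the female thymus (0.93), the female spleen (1.09) or either bone marrow library was left out, and in 13 of 22 alternatives.

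Of the 6 T cell markers tested 1 was called higher and none lower, where 0.497% and 0.124% of all tested genes were. Trbc2 (chr6:41546730-41548352), the constant gene of the T cell receptor beta chain, was at 42.9 and 8.78 CPM in the thymus and 0.115 and 0.468 CPM in the spleen. The rise of 6.43 log2 (SE 0.84, edgeR adjusted p 0.00013) was the largest rise of all called genes, and it ranged from 4.11 without the female thymus to 8.47 without the male thymus. Without the female spleen it was 4.38 and without the male spleen 8.11. It rests on 14 and 12 thymic UMIs in 9 of 128 and 10 of 353 cells, against 2 of 3660 and 3 of 1970 splenic cells. Of these thymic cells, 4 and 5 held a UMI of another T cell gene. The 15 T cell markers summed to 104 and 39.8 CPM in the thymus and 14.3 and 10.1 CPM in the spleen, where Trbc2 gave 14 of the 29 UMIs of the female thymus and 12 of the 49 of the male thymus. The median tested marker differed by -1.71 log2 in the female pool and by 1.07 in the male pool. Both thymus libraries lay above both spleen libraries for 3 of the 6, against 17.7% of all tested genes. Cd4 and Thy1, the gene of CD90, were at 0 UMIs in both thymus libraries, and Thy1 in both spleen libraries as well. The part of T cell RNA in the called differences was not tested beyond the values that follow. RNA outside cells carried Trbc2 at 14.6 and 9.97 CPM in the thymus and 0.29 and 0.58 CPM in the spleen. Tcf7, a transcription factor of T cell development that the marker list does not hold, had 5 and 9 thymic UMIs, or 15.3 and 6.59 CPM, against 0.346 and 0.585 CPM in the spleen. It rose by 4.45 log2 (SE 0.85, edgeR adjusted p 0.0072), and in free RNA it was higher in the thymus by 3.14 and 3.34 log2. Tcf7 was named after its values were seen. Prf1, which encodes perforin, rose by 1.40 log2 (61.2 and 23.4 CPM against 18.6 and 10.2, edgeR adjusted p 0.048). The other tested marker of natural killer cells, Gzma, was not called. The Prf1 call was lost without the female thymus (1.06) or either bone marrow library, and in 11 of 20 alternatives.

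Leaving out cells with a UMI of a T cell, natural killer, macrophage, dendritic, neutrophil, mast, erythroid or stromal marker kept 87 and 237 thymic cells and called 25 genes higher and 2 lower. Cells with B cell markers were kept. Of the 70 genes called in all cells, 25 were called there too. Ifi206 (4.57 log2), Usp18 (3.38), Rtp4 (5.26), Lgals3bp (2.40) and Tlr7 (2.19) were among them. Among the named genes higher in the thymus, Gm44206 (3.20), Mir155hg (2.17), Fscn1 (2.02), Ifi27l2a (2.26), Hist2h2aa1 (1.17), Gbp6 (1.65), Gvin1 (1.42) and Scd2 (1.08) lost the call. Of the 10 lower genes with the largest fall, Gm8797 (-2.23) alone kept it. None of the 6 macrophage markers tested was called. Neutrophil markers were at 0 CPM in the thymus and at most 0.14 CPM in the spleen, and erythroid markers at 0 CPM against 5.52 and 25.4 CPM. Markers of B cells summed to 785 and 712 CPM in the thymus and 1045 and 888 CPM in the spleen, and none of the 6 tested was called.

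RNA found outside cells differed between the tissues in the same direction for most genes called higher. Of the 56 genes called higher, 55 were also higher in both pools in the barcodes outside the cell lists, by a median of 1.45 and 1.66 log2. Of the 14 called lower, 9 were lower there in both pools. The share of all tested genes with such agreement was not taken, so these counts stand without a background. An estimate from light-chain V UMIs put the share of such free RNA at 4.99% and 6.43% of the UMIs of thymic cells and 18.0% and 15.9% of splenic ones. The cells had been kept by the share of their leading light-chain V gene, so the estimate was drawn from values already cut by that limit. It cannot tell free RNA from RNA of several cells in a droplet, and the true share was not tested. All values given with free RNA subtracted rest on this estimate. After subtraction of the estimated free RNA, 30 genes were called higher and 4 lower, and Ifi206 stood at 5.14 log2.

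Il4i1 had no UMI in the kept thymic cells. It encodes a secreted enzyme that degrades phenylalanine and restrains T cells. Both thymus libraries were at 0, against 216 and 131 UMIs in the spleens, or 12.5 and 15.3 CPM. Set against 3 UMIs over both thymus libraries together, the level was at least 5.95-fold lower in the thymus (edgeR adjusted p 0.0016). The call was lost in 4 of 21 alternatives, among them the fit without the male thymus, when a single library of 128 cells stood for the thymus. RNA outside cells held Il4i1 at 5.37 and 6.60 CPM in the thymus and at 7.24 and 12.3 CPM in the spleen, a difference of -0.43 and -0.90 log2 in the female and male pool. The gene was also at 17.0 and 19.2 CPM in bone marrow ASCs.
Vpreb3 had 0 and 5 thymic UMIs, or 0 and 3.66 CPM, against 54.9 and 15.8 CPM in the spleen. It fell by 3.08 log2 (SE 0.59, edgeR adjusted p 0.0076), and by 2.37 without the female thymus. Without the male thymus no thymic UMI remained. The predicted gene Gm8797 was at 15.3 and 35.9 CPM against 210.5 and 132 CPM, a difference of -2.45 log2 (SE 0.39, edgeR adjusted p 0.00096) that was called in all 22 alternatives. It ranged from -1.94 without the female thymus to -3.75 without the male thymus. Gm9844, another predicted gene, had 1 and 2 thymic UMIs against 433 and 124 in the spleen. Its pooled level was 9.55-fold lower, with an interval for counting error of 3.25 to 46.4, and the call (edgeR adjusted p 0.034) was lost in 10 of 21 alternatives, among them DESeq2, no TMM scaling, no term for sex, free RNA subtracted and the fit without the male thymus. With each cell thinned to 500 UMIs the difference was -0.87 log2. The fitted value of -3.54 moved to -2.81 without the female spleen and -4.96 without the male spleen.

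Immediate early genes, which respond to signals and to handling of cells within minutes, had 2 of 20 tested members called lower and a median of -0.22 log2. Of all tested genes, 0.124% were called lower. Egr1, a zinc finger transcription factor, was at 12.3 and 5.12 CPM in the thymus and 50.4 and 20.9 CPM in the spleen, and fell by 2.10 log2 (SE 0.44, edgeR adjusted p 0.018). Fos, a subunit of the transcription factor AP-1, was at 98.0 and 46.1 CPM against 385 and 115 CPM, and fell by 1.59 log2 (SE 0.38, edgeR adjusted p 0.047). Neither call held in more than 10 of 22 alternatives. Egr1 lost it without the male thymus (-1.91), the female or the male bone marrow (-2.04 and -2.03), and Fos without the female thymus (-1.17) or the female or male bone marrow (both -1.64). Jun and Junb stood at -1.11 and -0.81 log2 and Klf4 at 0.995, not called.

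Of the 58 histone genes tested 3 were called lower and 1, Hist2h2aa1, higher, with a median of -0.46. Among all tested genes 0.124% were called lower and 0.497% higher. The 3 lower ones were Hist1h4d (6.12 and 11.7 CPM against 54.7 and 35.5), Hist1h3c (15.3 and 8.05 CPM against 41.0 and 33.4) and Hist1h3e (9.18 and 20.5 CPM against 55.9 and 51.5). They fell by 1.98, 1.93 and 1.65 log2, with edgeR adjusted p-values of 0.011, 0.023 and 0.021. Histone genes have near-identical copies, so these counts are uncertain for each gene. With free RNA subtracted, Hist1h3c stood at 0.10 log2 and Hist1h4d at -0.56, neither called. Each of the 3 calls also ended without 1 library: Hist1h4d without the female thymus (-1.66), Hist1h3c without the male thymus (-1.28) and Hist1h3e without the female or the male thymus (-1.41 and -2.55). Without either bone marrow library Hist1h3c (-1.81 in each case) and Hist1h3e (-1.71 and -1.70) were not called. Hist1h4d was at -3.12 without the male thymus. Genes of S phase (24 tested, median -0.06) and of mitosis (24 tested, median -0.35) had no call. With cells thinned to 500 UMIs, 9.38% and 8.22% of thymic cells and 12.1% and 8.63% of splenic cells held at least 2 UMIs of cycle genes, and the tissues overlapped.

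Other genes fell in both pools. Apoe, the lipid carrier apolipoprotein E, was at 42.9 and 49.8 CPM in the thymus and 250.2 and 101 CPM in the spleen, and fell by 1.68 log2 (SE 0.36, edgeR adjusted p 0.021). Without the female thymus it stood at -1.27, and without the female or the male bone marrow at -1.70 and -1.69, each time without a call. Without the male thymus it was -2.36. Markers of macrophages, cells that also make Apoe, summed to 28.7 and 28.4 CPM in the thymus and 55.7 and 54.6 CPM in the spleen, and their part in the Apoe difference was not tested. Without cells that hold markers of other types, a set of fewer cells with fewer calls in all, Apoe stood at -1.28 and was not called. In all, 11 of 22 alternatives lost the call. Gpx3, a secreted peroxidase, was the only lower gene whose libraries overlapped, at 30.6 and 4.39 CPM against 74.2 and 23.3 CPM, a difference of -1.81 log2 (edgeR adjusted p 0.041). Ccdc115, a factor of proton pump assembly, stood at -1.98 and Shisa8, a membrane protein of the Shisa family, at -2.12 log2, with edgeR adjusted p-values of 0.02 and 0.048. Each of Gpx3, Ccdc115 and Shisa8 lost its call in 14 of 21 alternatives. Leaving out the male thymus gave -1.14 for Gpx3, -2.60 for Ccdc115 and -2.01 for Shisa8, none of them called. Without the female thymus Gpx3 stood at -2.61, called, and Ccdc115 at -1.81, not called. Without the female spleen Gpx3 stood at -1.58, not called, and none of the 3 was called without either bone marrow library.

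**Figure D4:**
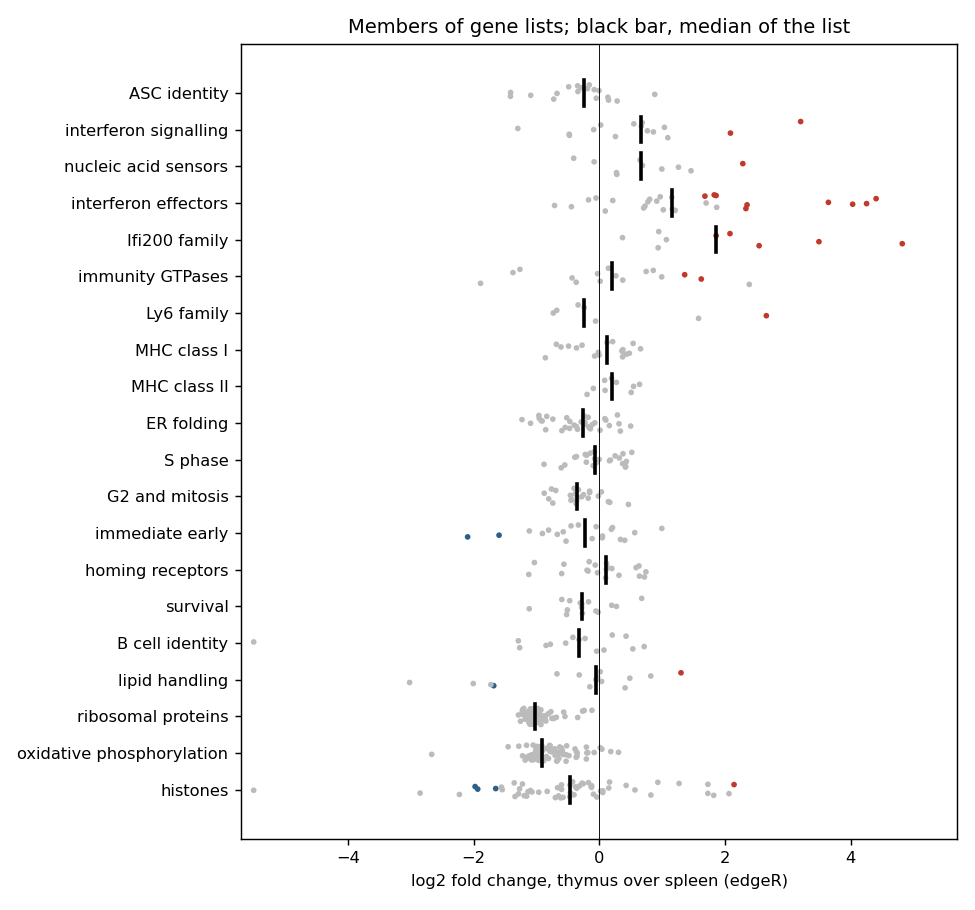
Each point is the edgeR log2 fold change of thymus over spleen for a tested member of a gene list, red where called higher and blue where called lower, and black bars mark list medians. The Ifi200 family and the interferon effectors stand farthest to the right, and no ribosomal protein or oxidative phosphorylation gene was called. Members beyond the axis range, such as Hist1h2bp and Cr2, are drawn at its edge.

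Lists for other functions held few or no calls. Of all tested genes 0.621% were called, a share at which lists of this size may hold none. None of 20 homing receptor genes, 19 genes of MHC class I presentation, 9 of MHC class II, 36 of protein folding in the endoplasmic reticulum, 15 of survival and 15 of B cell identity was called. Their medians were 0.11, 0.12, 0.19, -0.27, -0.28 and -0.32 log2. Of the 36 folding genes, 19 had both thymus libraries below both spleen libraries and 1 had them above. Among all tested genes these shares were 21.0% and 17.7%. Cxcr4, the receptor that draws plasma cells to niches rich in its ligand Cxcl12, stood at -0.03 log2, and Ccr9 and Ccr10, receptors of mucosal homing, at 0.64 and 0.72. Mt1 and Mt2, the metallothioneins, stood at -1.46 and -1.87 log2 with edgeR adjusted p-values of 0.16 and 0.066. Mt1 gained a call in 5 of 22 alternatives and Mt2 in 5 of 21.

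The class of antibody was read from the leading heavy-chain constant gene of each cell. IgM led in 64.1% of female and 79.9% of male thymic cells and in 73.6% and 88.4% of splenic cells. IgA led in 19.5% (exact 95% binomial interval 13.1 to 27.5) and 8.78% (6.04 to 12.2) of thymic cells, and in 6.91% (6.11 to 7.78) and 1.98% (1.41 to 2.70) of splenic cells. IgA was thus more frequent in the thymus in each pool, and the lowest thymic share lay above the highest splenic one. The exact permutation test between tissues gave 0.33, its smallest possible p, and the intervals cover counting error only. IgG led in 16.4% and 11.3% of thymic and 19.5% and 9.64% of splenic cells, with no order between tissues.

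**Figure D5:**
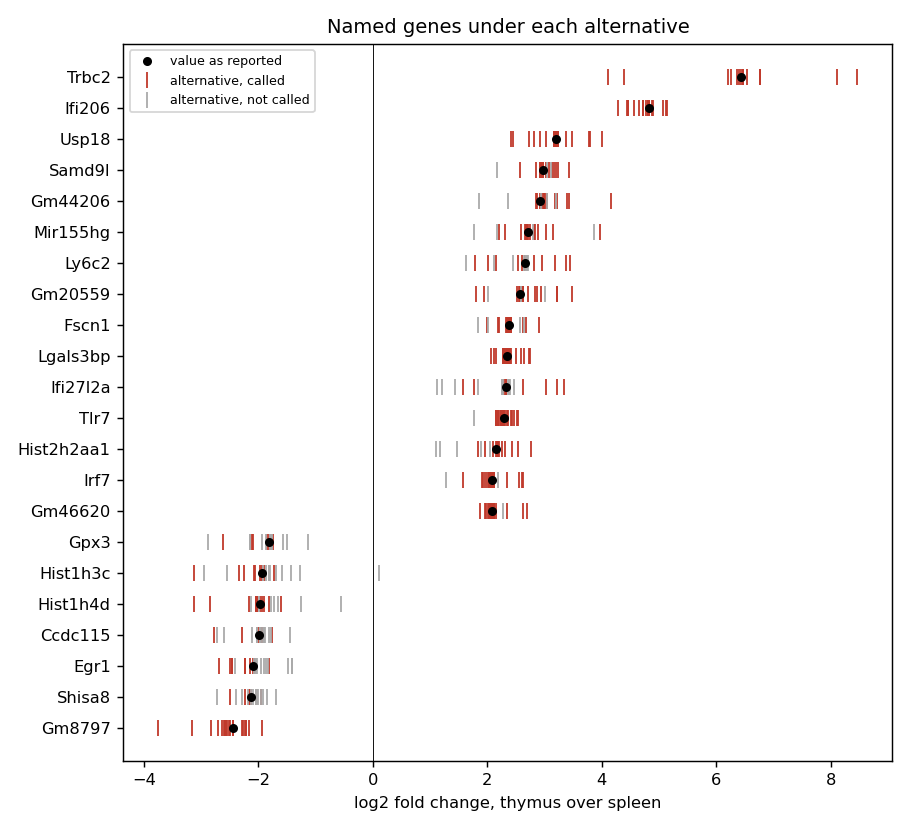
Log2 fold changes of named genes as reported (black) and under each alternative in which the gene was tested (ticks), red where the gene was called and grey where it was not. Ifi206, Usp18, Lgals3bp, Trbc2 and Gm8797 have red ticks alone, and the lower genes have many grey ticks, with 1 tick of Hist1h3c just above 0. Il4i1, Vpreb3 and Gm9844, which had few or no thymic UMIs, are not drawn.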

How the data were processed

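The deposited files are counts: raw UMI counts per gene and barcode, written by Cell Ranger 6.0.2 (barcodes called as cells) and Cell Ranger 4 (all barcodes), per the file headers. The submitters' processing notes name Cell Ranger 6.0.2 too. The annotation release is not given in the sources used here. Gene positions and types were taken by identifier from GENCODE on GRCm38, and promoters from RefSeq.

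The 395 genes starting with Igh, Igk or Igl were left out of depths and tests. Counts were summed per library and tested with edgeR 4.0.16 (R 4.3.3): quasi-likelihood test, sex plus tissue over 6 libraries (2 residual degrees of freedom), filterByExpr, TMM scaling, Benjamini-Hochberg adjustment over 11264 genes at 0.05. CPM of single genes is TMM-scaled. SE is the log2 fold change divided by the root of F. Differences within a pool use a prior count of 1. The libraries were treated as independent, and p-values cover only the spread between these pools. DESeq2 1.42.0 was an alternative. Tested on simulated data, the code recovered 98% of 200 genes changed by 2 log2 units, with 9 false calls among 11017 genes. The changed genes were drawn above a minimum mean CPM, and the counts were simulated from the fitted spread alone. The recovery therefore does not cover genes with few UMIs or shifts of whole libraries.

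Named genes were the 15 called genes with the largest rise and at least 10 UMIs in each thymus library, and the 10 with the largest fall and at least 10 UMIs in each spleen library. From each list, up to 4 called members, or else the 2 most abundant, were added, as were all ASC identity genes and genes whose direction differed between pools. Ifi204, Oas1a, Oas3, Trim30a and Xaf1 were named beyond this rule to complete families, and uncalled list members were named as examples after their values were seen. The members and lists were chosen with earlier results of these data known. Doublets were limited by the light-chain share alone, with no doublet caller. The alternatives covered the test, scaling, filters, cell sets, free RNA, depth and each library in turn, 22 in all. Of these, 4 were chosen after seeing the data: barcodes in 1 library only, barcodes deeper in another library left out, each cell thinned to 500 UMIs, and cells with at least 10% ribosomal protein UMIs. The VDJ tables served for barcode lists only.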

Additional observations from a re-analysis of the deposited data

Results flagged for a closer look

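A pair of genes had an adjusted p under 0.05 in edgeR's quasi-likelihood test but opposite directions in the female and male pool, and so were not called. Hist1h2ao, a histone gene, had a fitted difference of 2.06 log2 (SE 0.42, edgeR adjusted p 0.012), at 15.3 CPM in the female thymus against 19.1 CPM in the female spleen and 69.5 CPM in the male thymus against 8.54 CPM in the male spleen. Cdh2, which encodes N-cadherin, had 2.37 (SE 0.50, edgeR adjusted p 0.019), with 0 UMIs in the female thymus against 2.42 CPM in the female spleen, and 25.6 CPM in the male thymus against 4.09 CPM in the male spleen. Thymus minus spleen was -0.32 and 3.01 log2 in the female and male pool for Hist1h2ao, and -4.16 and 2.60 for Cdh2. The difference between the pools was not tested.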

How the results depend on the processing

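The 56 higher and 14 lower calls became 35 and 6 with the thymus and spleen libraries only, 19 and 2 without a term for sex, 14 and 2 with a light-chain share of at least 90%, and 25 and 2 without cells that hold markers of other types. They became 186 and 529 without cells that hold cycling UMIs, 89 and 232 with barcodes in 1 library only, 30 and 4 with free RNA subtracted, 24 and 31 with each cell thinned to 500 UMIs, and 3 and 1 with libraries thinned to the shallowest. The lower calls moved by over 1.5 times and the higher ones by less in the next 4: 7 with DESeq2 (49 higher), 3 without TMM (63 higher, with the median of all genes shifted from -0.03 to 0.20), 35 without a filter (82 higher) and 35 with at least 10% ribosomal protein UMIs (80 higher). Leaving out 1 library at a time gave 25 to 230 higher and 6 to 717 lower calls. The calls held within 1.5 times at 1000 UMIs, with at least 2 ASC genes and without barcodes deeper in another library. Of 38 called genes that were named by rule, 6 were called in every alternative that tested them, 16 lost the call in 1 to 5 and 16 in 6 or more. Of 68 genes named by rule that were not called, 24 gained a call in some alternative. Hist1h3c reversed to 0.10 with free RNA subtracted. Causes of these shifts were not tested, except that thinning to the shallowest library left 4654 genes to test. The term for sex pairs the female and the male libraries across tissues, and the labels carry no replicate numbers to pair them otherwise. Depth in the thymus limits genes under about 10 UMIs there.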

Other observations

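Among the called genes not described so far, the following were chosen after their values were seen. Their values under the alternatives are not given. Il9r, the receptor of interleukin 9, was at 6.12 and 13.2 CPM against 2.13 and 2.10 CPM and rose by 2.40 log2 (SE 0.53, edgeR adjusted p 0.025). It rests on 2 and 18 thymic UMIs, and bone marrow stood at 7.74 and 7.31 CPM, above the female thymus. Sdc3, a syndecan related to CD138, was at 49.0 and 47.6 CPM against 10.5 and 13.2 CPM and rose by 1.98 log2 (SE 0.31, edgeR adjusted p 0.00086). Abcg1, a cholesterol exporter, was at 76.5 and 65.1 CPM against 17.2 and 30.4 CPM and rose by 1.53 log2 (SE 0.31, edgeR adjusted p 0.011). Otulin, an enzyme that cleaves linear ubiquitin chains, was at 94.9 and 40.2 CPM against 25.8 and 20.6 CPM and rose by 1.39 log2 (SE 0.30, edgeR adjusted p 0.023). Acp5, the tartrate-resistant acid phosphatase, was at 15.3 and 12.4 CPM against 64.5 and 34.9 CPM and fell by 1.71 log2 (SE 0.37, edgeR adjusted p 0.02).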
